A study of Mus musculus with 6 samples.

Results

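The genes described here encode the laminin chains, nidogens, perlecan and laminin-binding integrin of the basement membrane that wraps each muscle fibre. They are 10 genes chosen by name (Lama2, Lama4, Lamb1, Lamb2, Lamc1, Nid1, Nid2, Hspg2, Itga7 and Itgb1), out of 34492 rows on the array. Of the 10 names, 8 stood as a row under that name (LAMA2, LAMA4, LAMB2, LAMC1, NID1, HSPG2, ITGA7 and ITGB1). Lamb1 was reached through 2 rows that RefSeq lists as its synonyms, a second row of Itgb1 was reached in the same way, and Nid2 was not analysed here. Of the 9 genes with a row, 8 passed the filter on detection (detection p under 0.05 on at least 3 of 6 arrays), and Lama4 did not.

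RNA came from the soleus, a slow postural muscle of the hindlimb, of male mice aged 11 months. Mice of the genotype labelled Coco/KO had skeletal muscle alpha-actin replaced with cardiac actin, per the series title, and were set against wildtype mice of the same strain designation (CBB6F1xFVB/n). Each genotype had 3 arrays, and each array carried RNA pooled from 2 muscles of different mice, so the spread between arrays is a spread between pools. The labels do not say which promoter drives the cardiac actin, nor in which cells. As a check of the labels, the log2 signal of Acta1, skeletal alpha-actin, was 10.86 ± 0.34 in Coco/KO and 15.46 ± 0.17 in wildtype soleus (SD, n = 3 each). That of Actc1, cardiac alpha-actin, was 12.46 ± 0.40 in Coco/KO and 10.02 ± 0.58 in wildtype soleus.

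The basement membrane is a sheet of laminin and collagen IV networks linked by nidogen and perlecan. Laminins are trimers of an α, a β and a γ chain, and the α2 chain is the one that marks the membrane of the mature muscle fibre. The fibre holds on to it through dystroglycan and through α7β1 integrin, which ties it to the cytoskeleton at the fibre ends and along the fibre. In humans, loss of LAMA2 causes a congenital muscular dystrophy and loss of ITGA7 a congenital myopathy.

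No gene of this set passed the test between the genotypes. In limma, a linear model fitted over all 12135 genes tested, 0 of the 8 members had an adjusted p under 0.05, against 0.148% of all genes (18 genes). At an unadjusted p under 0.05 there was 1 member, Itga7, against 8.21% of all genes. The 8 log2 changes, Coco/KO minus wildtype, lay between -0.46 and 0.30, 3 above 0 and 5 below, with a median of -0.024 where the median of all genes was 0.0014. The arrays of the 2 genotypes did not overlap for 2 of the 8 members, Itga7 and Lama2, against 12.7% of all genes. In whole muscle, fewer cells of a type and less RNA per cell cannot be told apart.

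**Figure D1:**
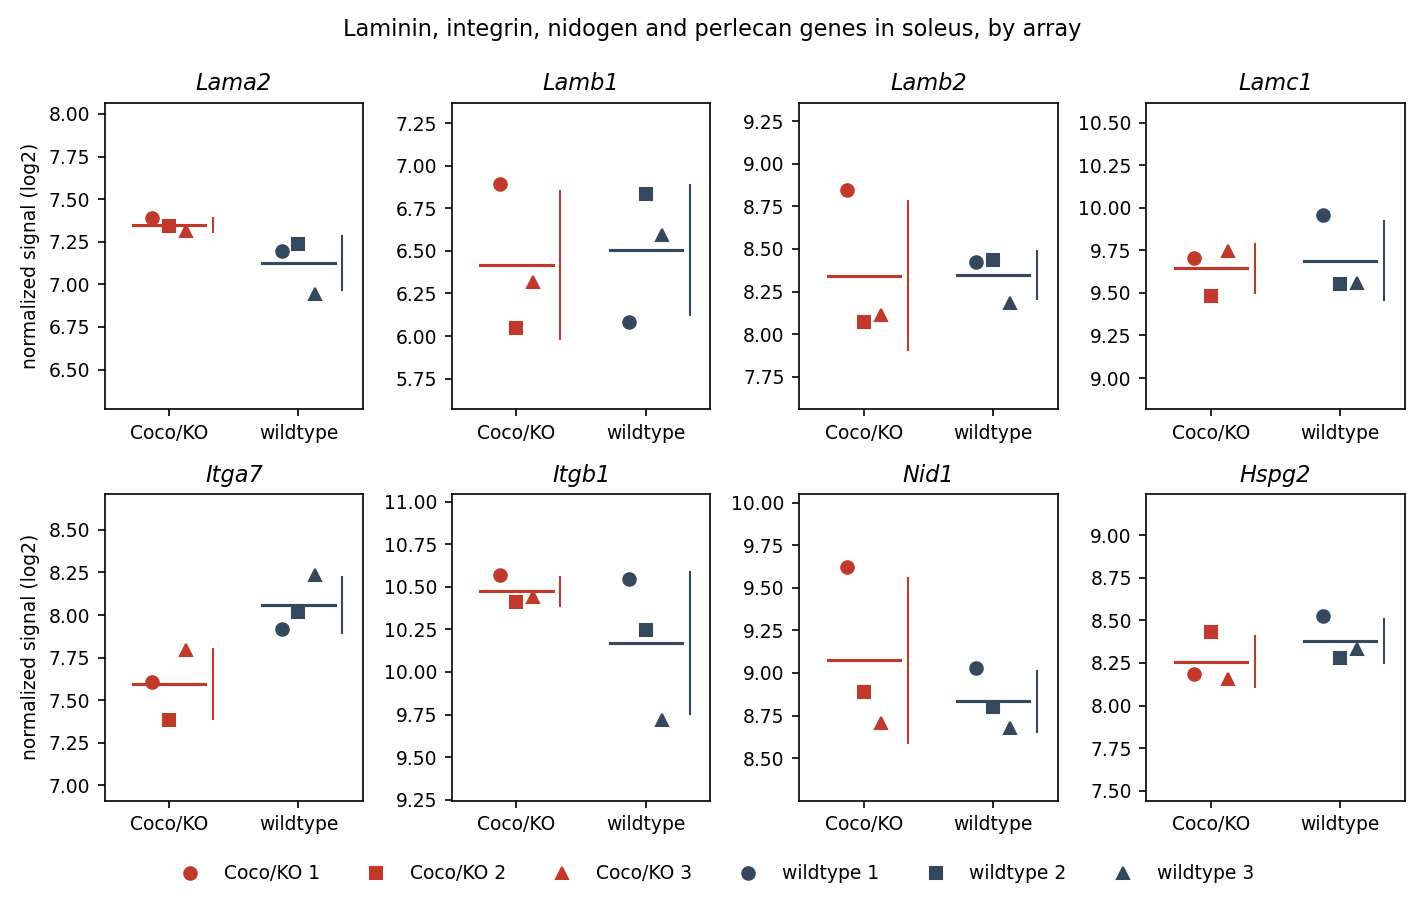
Normalized signal (log2) of the 8 members tested on each of the 6 arrays, Coco/KO left and wildtype right. Each panel spans the same number of log2 units. Horizontal lines are group means and vertical lines 1 SD either side. The groups are apart for Itga7 and, by a small margin, for Lama2, and overlap in the other panels.

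Itga7, the α7 integrin subunit that pairs with β1 as the main laminin-binding integrin of the muscle fibre, had the largest difference of the set. Its deposited intensity was 138.4, 80.1 and 208 on the Coco/KO arrays 1, 2 and 3, against 152.3, 240 and 245.9 on the wildtype arrays 1, 2 and 3. On that scale the genotypes overlapped, because the Coco/KO 3 array lay above the wildtype 1 array. After normalization the log2 signal was 7.61, 7.38 and 7.80 in Coco/KO soleus, against 7.92, 8.02 and 8.24 in wildtype soleus, and every Coco/KO array was below every wildtype array. The log2 change was -0.46 (SE 0.17), a 1.38-fold lower signal, with a 95% interval from -0.84 to -0.084 (limma, unadjusted p = 0.0221, adjusted p = 0.480). The interval leaves out 0 before the adjustment over 12135 genes, and the change did not pass after it. The Itga7 row rested on 14 to 23 beads per array, where the median row had 35 or 36, and the bead-to-bead standard error was between 10.7% and 23.3% of its signal. Its log2 change was -0.14 (SE 0.044) with background modelled from the detection p-values (limma, adjusted p = 0.621). Both the change and its SE shrank in that setting, so the smaller value is not a weaker change relative to its error.

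Itgb1, the β1 subunit shared by many integrins of many cell types, had a change of the other sign, which did not pass either. Its intensity was 1542.2, 1015.1 and 1699.3 on the Coco/KO arrays, against 1145.2, 1391 and 786.4 on the wildtype arrays. The normalized log2 signal was 10.47 ± 0.084 in Coco/KO and 10.17 ± 0.42 in wildtype soleus (SD, n = 3 each), and the groups overlapped. The wildtype 3 array was the lowest of the 6 at 9.72, and the other 5 lay between 10.25 and 10.57. The log2 change was 0.30 (SE 0.21), with a 95% interval from -0.18 to 0.78 (limma, adjusted p = 0.788). It was 0.078 without the wildtype 3 array and also 0.078 with the position on the chip in the model. Bead error on this row was between 3.58% and 4.60% of the signal. The second Itgb1 row, named 4633401G24RIK, had a log2 signal of 7.32 in Coco/KO and 7.20 in wildtype soleus, a change of 0.12 (SE 0.27, limma with every row on its own, adjusted p = 0.970). On that row the wildtype 3 array was the highest of the 6 and wildtype 1 the lowest, so the rows of this gene did not share an order.

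The α7 and β1 subunits form 1 receptor, and their rows were therefore set against each other within each array, together with 3 laminin partner pairs. The pairs were picked after the values had been seen. Only the change of such a difference between genotypes can be read, since the rows of different genes have their own brightness. For Itga7 minus Itgb1 the log2 difference was -2.96, -3.03 and -2.64 on the Coco/KO arrays, against -2.63, -2.23 and -1.48 on the wildtype arrays. The groups did not overlap, but the nearest arrays of the 2 genotypes, Coco/KO 3 and wildtype 1, were almost level. The genotypes differed by -0.76, which is given as a description. Itga7 and Itgb1 had the lowest and the highest log2 change of the 8 members, so this gap and its lack of overlap are no separate evidence. An exact permutation over the 20 splits of the arrays gave p = 0.1 (adjusted p = 0.4 over the 4 pairs). That is the lowest p such a test can give here, and it cannot decide, since the pair was picked afterwards. The difference was -0.45 without the wildtype 3 array, which had both the highest Itga7 and the lowest Itgb1. In the intensities without normalization it was -1.02, and -0.67 without wildtype 3.

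**Figure D2:**
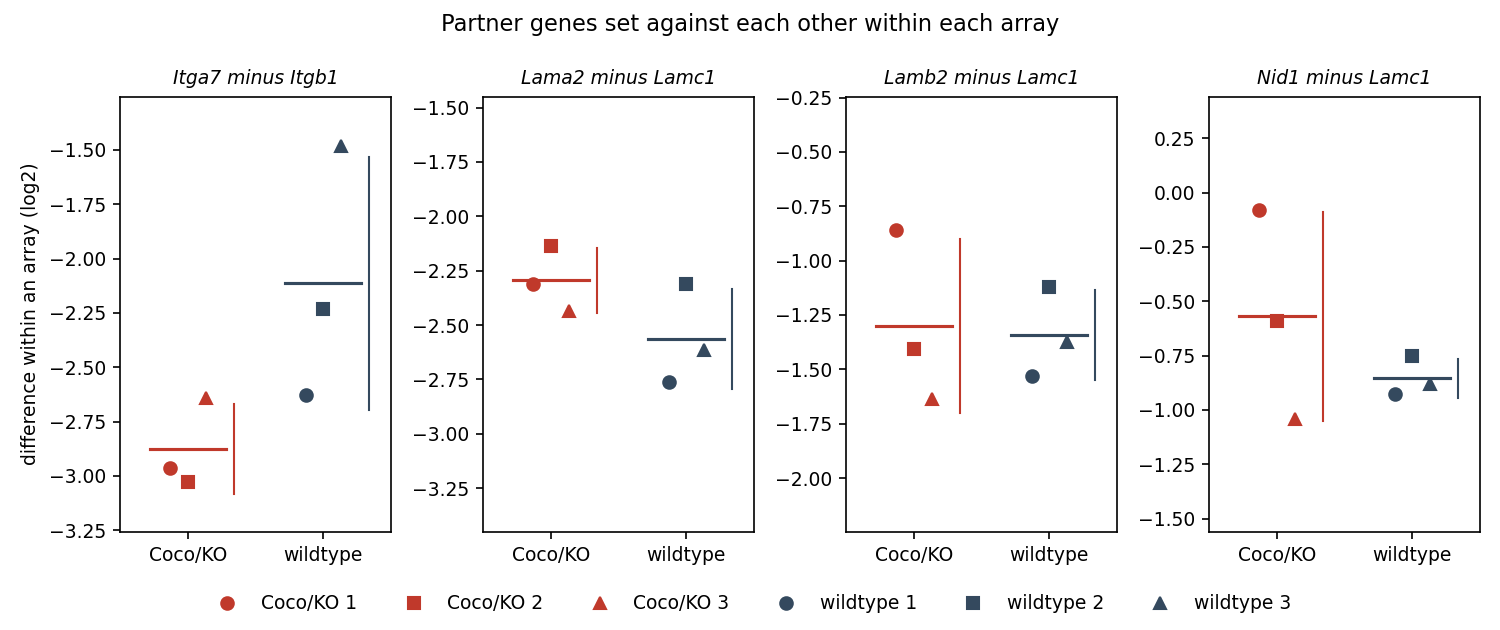
Log2 difference between the rows of 2 partner genes within each array, for 4 pairs, Coco/KO left and wildtype right. Horizontal lines are group means and vertical lines 1 SD either side. Itga7 minus Itgb1 is lower on all 3 Coco/KO arrays, and the other 3 pairs overlap.

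Among the laminins, Lama2 encodes the α2 chain of the fibre membrane. Its intensity was 108.6, 76.8 and 126.2 on the Coco/KO arrays, against 74.9, 110.6 and 66.3 on the wildtype arrays, and the genotypes overlapped on that scale. The normalized log2 signal was 7.39, 7.34 and 7.31 in Coco/KO soleus, against 7.19, 7.24 and 6.94 in wildtype soleus. These did not overlap, and the Coco/KO arrays lay close together (SD 0.040). The log2 change was 0.22 (SE 0.14), with a 95% interval from -0.11 to 0.55, or 0.929-fold to 1.47-fold (limma, adjusted p = 0.762). It was 0.042 (SE 0.020) with modelled background, where the SE shrank as well, and 0.13 without the wildtype 3 array.

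Lamc1, the γ1 chain present in nearly all laminins of the muscle, had nearly level group means. Its log2 signal was 9.64 ± 0.14 in Coco/KO and 9.69 ± 0.23 in wildtype soleus (SD, n = 3 each). The genotypes differed on the log2 scale by -0.045 (SE 0.17), with a 95% interval from -0.43 to 0.34 (limma, adjusted p = 0.986). Its intensity was 820.4, 493.3 and 1024.2 on the Coco/KO arrays, against 743.8, 834.4 and 700.7 on the wildtype arrays. The wide range among the Coco/KO intensities shrank to 0.27 log2 units after normalization. Its sign turned in 3 of 18 alternative settings.

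Lamb2, the β2 chain that is concentrated at the neuromuscular junction, differed more within the Coco/KO group than between the genotypes. Its intensity was 419.2, 153 and 277.7 on the Coco/KO arrays, against 234.3, 343.9 and 234.3 on the wildtype arrays. The log2 signal was 8.85, 8.07 and 8.11 in Coco/KO soleus, against 8.42, 8.43 and 8.18 in wildtype soleus, so the Coco/KO arrays held both the highest and the lowest value. On the log2 scale the change was -0.0026 (SE 0.22), with a 95% interval from -0.51 to 0.50 (limma, adjusted p = 0.999). Without the Coco/KO 1 array it was -0.25 (adjusted p = 0.741).

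Lamb1, the β1 laminin chain of fibre and vessel membranes, was dim. Its row LAMB1-1 was detected on 2 of 3 Coco/KO arrays (57, 6.5 and 24.3 intensity units on arrays 1, 2 and 3) and on 2 of 3 wildtype arrays (8.5, 64.9 and 39.8). The undetected values were 6.5 on Coco/KO 2 and 8.5 on wildtype 1. The log2 change was -0.085 (SE 0.26), and its 95% interval, from -0.68 to 0.51, was the widest of the set (limma, adjusted p = 0.982). The other Lamb1 row, D130003D08RIK, was detected on 0 of 6 arrays. Lama4, the α4 chain of vessel membranes, was detected on 0 of 3 Coco/KO arrays (intensities 40.1, 35.8 and 48) and on 1 of 3 wildtype arrays (38.1, 48.4 and 42.2). Lama4 was left out of the test by its detection p, and no fold is given. Its signal was not dimmer than that of the Lamb1 row tested. Mean intensities in Coco/KO and wildtype soleus were 41.3 and 42.9 for Lama4, and 29.3 and 37.7 for LAMB1-1.

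Nid1 and Hspg2 encode the proteins that join the laminin sheet to collagen IV. For Nid1, nidogen-1, which binds the laminin γ1 chain, the intensity was 771.6, 308.9 and 458.7 on the Coco/KO arrays, against 382.5, 467.9 and 352.7 on the wildtype arrays. The Coco/KO 1 array stood above the other 5, with a log2 signal of 9.62 where the others lay between 8.68 and 9.03. Its log2 change was 0.24 (SE 0.24), with a 95% interval from -0.31 to 0.79 (limma, adjusted p = 0.894). It was -0.036 without Coco/KO 1 and -0.037 with chip position in the model. Lamb2 had its highest value on the same array, and both rows carried bead errors under 10% of the signal there (9.65% for Nid1 and 7.69% for Lamb2).

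For Hspg2, perlecan, a heparan sulfate proteoglycan of basement membranes, the intensity was 242.2, 209.3 and 288.6 on the Coco/KO arrays, against 253.8, 300.9 and 267.2 on the wildtype arrays. The log2 signal was 8.26 ± 0.15 in Coco/KO and 8.38 ± 0.13 in wildtype soleus (SD, n = 3 each), and the groups overlapped. Its log2 change was -0.12 (SE 0.15), with a 95% interval from -0.46 to 0.22 (limma, adjusted p = 0.928).

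**Figure D3:**
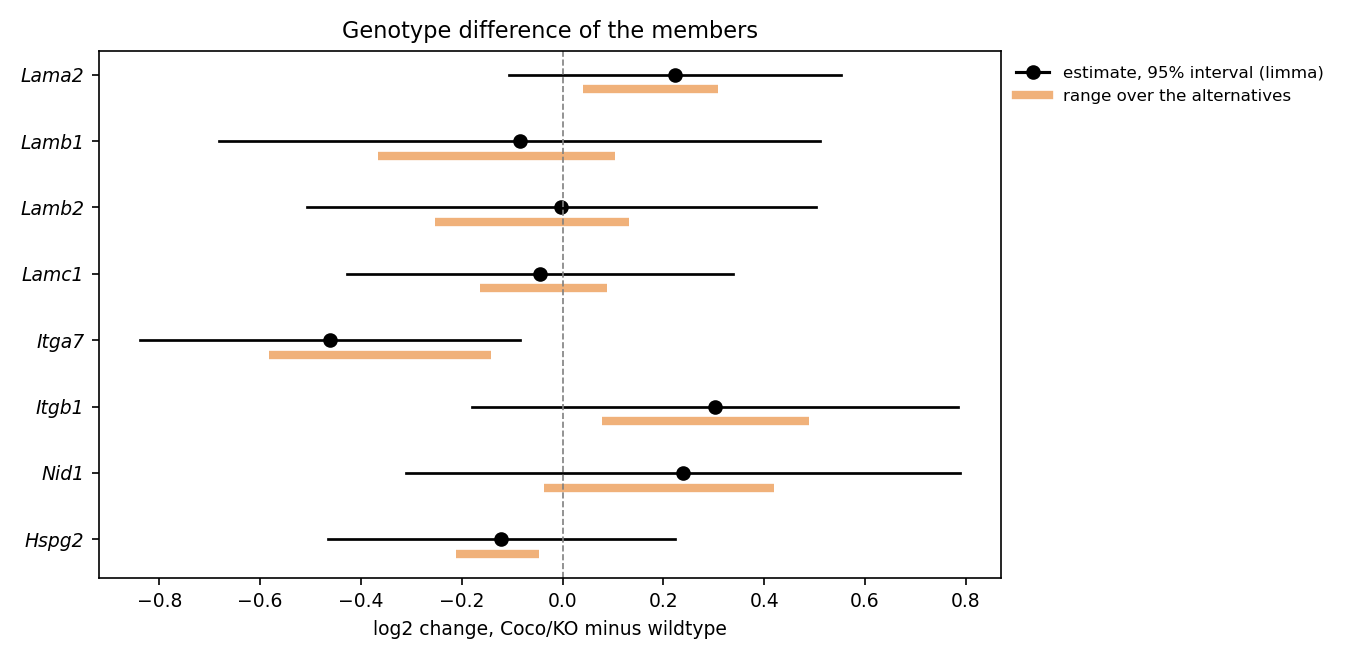
Log2 change of each member tested, Coco/KO minus wildtype, with its 95% interval before adjustment (black, limma) and the range over the alternative processing settings (orange). The interval of Itga7 lies below 0, the other 7 intervals hold 0, and none of the 8 passed after adjustment.

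The arrays differed in a way that crossed the genotypes. Of the 8 members, 6 had their lowest intensity on the Coco/KO 2 array and the other 2 on wildtype 3. The Coco/KO 2 array also had the lowest mean intensity over all rows, 330.2, where the 6 arrays ranged up to 470.2. The wildtype 1 array was almost as dim, at 332.0, yet it was lowest in intensity for 0 of the 8 members. After normalization Coco/KO 2 was lowest for 4 members, wildtype 3 for 3 and Coco/KO 3 for 1, while Coco/KO 1 was highest for 5. The spread among Coco/KO arrays was wider than among wildtype arrays for 5 of the 8 members and narrower for 3. The Coco/KO 1 array had the lowest mean correlation with the other arrays, 0.970 where the others had 0.975 to 0.977. Between 33.6% and 37.9% of rows were detected on each array.

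The other genes of fibre-to-matrix attachment were read from 7 lists of 91 genes, of which 89 had a row and 54 were tested. In limma 0 of the 54 passed over all genes, and 8 had an unadjusted p under 0.05, against 8.21% of all genes, the background for the counts of each list as well. Their median log2 change was 0.046, with 31 above 0 and 23 below, and 11 of 54 (20.4%) had no overlap between genotypes, against 12.7% of all genes. The number of arrays limits what such a count can show. The counts above 0 and without overlap include Itgal, which passed the filter only through the Coco/KO arrays. The filter thus favoured its positive sign and its lack of overlap. Itga9 is counted there as well, on its brighter row, while its dimmer row changed in the opposite direction. The share without these genes was not computed.

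**Figure D4:**
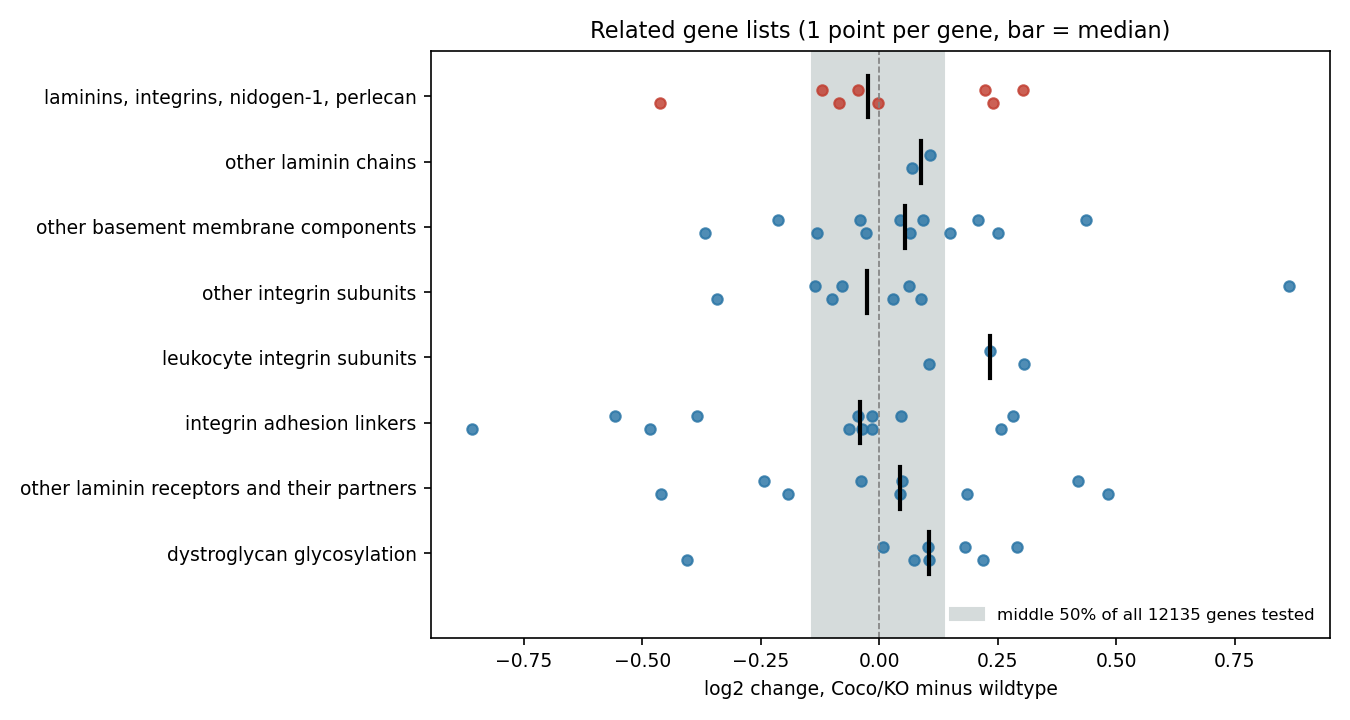
Log2 change, Coco/KO minus wildtype, of each gene tested in the set described here (red) and in 7 related lists (blue), with the median of each as a black bar and the middle 50% of all genes tested in grey. The list medians lie between -0.040 and 0.23, and the farthest points are Itga9 (its brighter row) on the right and Tns1 on the left. Itgal, which passed the filter only through the Coco/KO arrays, is among the points and in the median of the leukocyte integrins.

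Of 6 other laminin chains 2 were tested and 0 passed, with 0 at an unadjusted p under 0.05. Lamc3 had a log2 change of 0.11 (SE 0.19) and Lamb3 of 0.070 (SE 0.29), and the sign of each turned when 1 array was left out. Of 20 other basement membrane components 12 were tested and 0 passed, with 1 at an unadjusted p under 0.05 and a list median of 0.054. That one was Col4a5, a collagen IV chain, at 7.07 ± 0.11 in Coco/KO and 6.63 ± 0.22 in wildtype soleus. Its log2 change was 0.44 (SE 0.16, limma, adjusted p = 0.498). At its lowest the Col4a5 change was 0.061 (SE 0.022), with modelled background, where the SE shrank as well. Smoc1, a calcium-binding matrix protein, had -0.37 (SE 0.25), and -0.073 without the wildtype 2 array. Col15a1, a collagen beneath the membrane, had 0.25 (SE 0.24), and 0.089 without the Coco/KO 1 array.

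Of 17 other integrin subunits 8 were tested and 0 passed, with 1 at an unadjusted p under 0.05 and a list median of -0.025. Itga9, the α9 subunit that binds tenascin and osteopontin, gave opposite signs on its 2 rows. The brighter row, 6720458D17RIK, had a log2 signal of 8.74, 8.69 and 9.11 in Coco/KO soleus, against 7.93, 7.99 and 8.02 in wildtype soleus, with no overlap. Its log2 change was 0.86 (SE 0.16, limma, adjusted p = 0.143), the lowest adjusted p of all 54 genes. The dimmer row, ITGA9, changed by -0.41 (SE 0.22, limma with every row on its own, adjusted p = 0.693), so no direction is given for the gene. Itga6, the α6 subunit of laminin receptors, had -0.34 (SE 0.16), with no overlap after normalization and adjusted p = 0.649 in limma. Its deposited intensities did overlap (up to 200.5 in Coco/KO, from 188.3 in wildtype). Itgb5 had -0.13 (SE 0.15), and -0.044 without the Coco/KO 2 array.

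Leukocyte integrins were read as their own list, since these subunits mark blood-derived cells and not fibres. Of 7 subunits 3 were tested and 0 passed, with 0 at an unadjusted p under 0.05. Itgal was detected on 3 of 3 Coco/KO and 0 of 3 wildtype arrays, so it passed the filter only through the Coco/KO arrays, and no fold is given. Itgam, detected on 2 of 3 Coco/KO arrays and 1 of 3 wildtype arrays, had a log2 change of 0.23 (SE 0.20), and 0.063 without the Coco/KO 1 array. Itgb7 had 0.11 (SE 0.18), and -0.023 without the same array. The summed normalized signal of 13 macrophage and leukocyte markers lay between 4702 and 9023 on the Coco/KO arrays, against 2994 to 4043 on the wildtype arrays. All 13 had a positive log2 change, with a median of 0.68, and 0 passed (7 at an unadjusted p under 0.05, against 8.21% of all genes). The part of these cells in the integrin values was not tested.

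Of 18 adhesion linkers, which couple integrin tails to the cytoskeleton, 12 were tested and 0 passed, with 2 at an unadjusted p under 0.05 and a list median of -0.040. Those were Tns1, tensin, at -0.86 (SE 0.31, limma, adjusted p = 0.484), and Lims2, a partner of integrin-linked kinase, at -0.48 (SE 0.19, adjusted p = 0.524), both with no overlap after normalization. Their deposited intensities did overlap. Tns1 went up to 573.6 in Coco/KO, from 485.9 in wildtype, and Lims2 up to 755.7 in Coco/KO, from 638.9 in wildtype. Without the Coco/KO 1 array they were -0.49 for Tns1 and -0.30 for Lims2. Tns1 was detected on 3 of 3 Coco/KO arrays but 1 of 3 wildtype arrays, although its highest intensity, 933.6, was on wildtype 2, where it was not detected. Itgb1bp2, melusin, a muscle protein that binds the β1 integrin tail, had 12.75 ± 0.081 in Coco/KO and 12.46 ± 0.19 in wildtype soleus, a log2 change of 0.28 (SE 0.15, limma, adjusted p = 0.694).

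Of 10 other laminin receptors and their partners 9 were tested and 0 passed, with 3 at an unadjusted p under 0.05. Dag1, dystroglycan, the other main laminin receptor of the fibre, had a log2 signal of 11.22, 11.24 and 11.14 in Coco/KO soleus, against 11.62, 11.97 and 11.38 in wildtype soleus. These did not overlap, while the deposited intensities did (up to 2723.6 in Coco/KO, from 2451.8 in wildtype). The log2 change was -0.46 (SE 0.18, limma, adjusted p = 0.515), and -0.31 without the wildtype 2 array. Cd151, a tetraspanin that associates with laminin-binding integrins, was at 11.44 ± 0.11 in Coco/KO and 10.96 ± 0.21 in wildtype soleus, a log2 change of 0.48 (SE 0.16, limma, adjusted p = 0.429). Sgcd, δ-sarcoglycan, had 0.42 (SE 0.14, limma, adjusted p = 0.429) on its brighter row and 0.19 (SE 0.36) on the other.

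Of 13 genes that build the laminin-binding sugar of dystroglycan 8 were tested and 0 passed, with 1 at an unadjusted p under 0.05 and a list median of 0.10. Pomgnt2, a glycosyltransferase of that pathway, had 8.79 ± 0.0060 in Coco/KO and 9.20 ± 0.15 in wildtype soleus, a log2 change of -0.40 (SE 0.14, limma, adjusted p = 0.478). The small Coco/KO spread arose with normalization. The deposited intensities were 405.2, 285.3 and 492.9 in Coco/KO, against 454.6, 561.3 and 584.4 in wildtype, and overlapped. Pomt2 had 0.29 (SE 0.16). Of the 8 genes 7 had a positive change, where 50.3% of all genes did, and the gene of lowest p, Pomgnt2, had a negative change.

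Several cell types of a whole muscle make basement membrane, and their markers were read beside the members. Over all genes tested, 8.21% had an unadjusted p under 0.05 and 50.3% had a positive change. These shares are the background for the counts of each marker list. The 7 smooth muscle and pericyte markers tested had a summed normalized signal of 4248 to 5654 on the Coco/KO arrays, against 6995 to 8610 on the wildtype arrays, and all 7 changes were negative (median -0.23, 0 passed, 2 at an unadjusted p under 0.05), led by Kcnj8 (-0.65, SE 0.22) and Rgs5 (-1.20, SE 0.43). For Rgs5 the change was -0.70 when the Coco/KO 1 array was left out, and -0.66 once chip position was fitted. The 5 Schwann cell markers summed to 1619 to 2156 in Coco/KO, against 2330 to 2394 in wildtype, all 5 changes negative (median -0.10, 0 passed, 1 at an unadjusted p under 0.05), with Mbp at -0.53 (SE 0.19) and Pmp22 at -0.22 (SE 0.17, -0.082 without the Coco/KO 2 array). Both separations hold only after normalization: in deposited intensity the smooth muscle and pericyte sums were 3867 to 7106 in Coco/KO, against 5880 to 9005 in wildtype, and the Schwann cell sums 1252 to 2728 in Coco/KO, against 1875 to 2791 in wildtype. A sum also gives most weight to bright genes. Pmp22 made up most of the Schwann cell sum, and it overlapped between genotypes (log2 signal 10.91 on Coco/KO 3, 10.88 on wildtype 2). Rgs5 made up most of the smooth muscle and pericyte sum on wildtype 3 (log2 signal 12.32). The sums without these genes were not computed. The 5 adipocyte markers summed to 6342 to 12990 in Coco/KO, against 11764 to 26254 in wildtype, with a median change of -0.81, 0 passed and 3 at an unadjusted p under 0.05 (Cfd -0.81, Cidec -1.16, which was -0.57 without the wildtype 2 array). The sums of 9 endothelial markers (6215 to 7871 in Coco/KO, 6686 to 9805 in wildtype, median -0.14) overlapped. So did those of 11 fibroblast and tendon markers (18173 to 22028 in Coco/KO, 18535 to 23860 in wildtype, median 0.15) and of 8 myofibre markers (222249 to 245868 in Coco/KO, 207340 to 240262 in wildtype, median 0.047). In these last 3 lists 0 genes passed, and 0, 3 and 1 had an unadjusted p under 0.05. Their genes of lowest p were Esam (-0.29) and Egfl7 (-0.45, and -0.27 without wildtype 3), Mfap5 (0.82) and Fmod (-0.96), and Tnni1 (0.91) and Tnnt1 (0.13, and 0.037 without wildtype 3). Among the macrophage markers these were Cd74 (0.77) and Fcgr3 (1.42).

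All 8 myofibre markers were detected on at least 3 arrays. Of the defining markers of other cell types, Kdr and Tie1 of endothelium, Myh11, Tagln and Cnn1 of smooth muscle, Prx and Sox10 of Schwann cells, Col1a1 of fibroblasts, Ptprc, Fcgr1 and Lyz2 of leukocytes, and Plin1, Pparg and Retn of adipocytes were detected on fewer than 3 arrays. That does not show that they were absent, since the detection p did not follow intensity from row to row. On wildtype 2, Tns1 had an intensity of 933.6 and a detection p of 0.258, while Smoc1 was detected at 120.6. The part of any of these cell types in the values of the laminin, integrin, nidogen and perlecan genes was not tested.

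**Figure D5:**
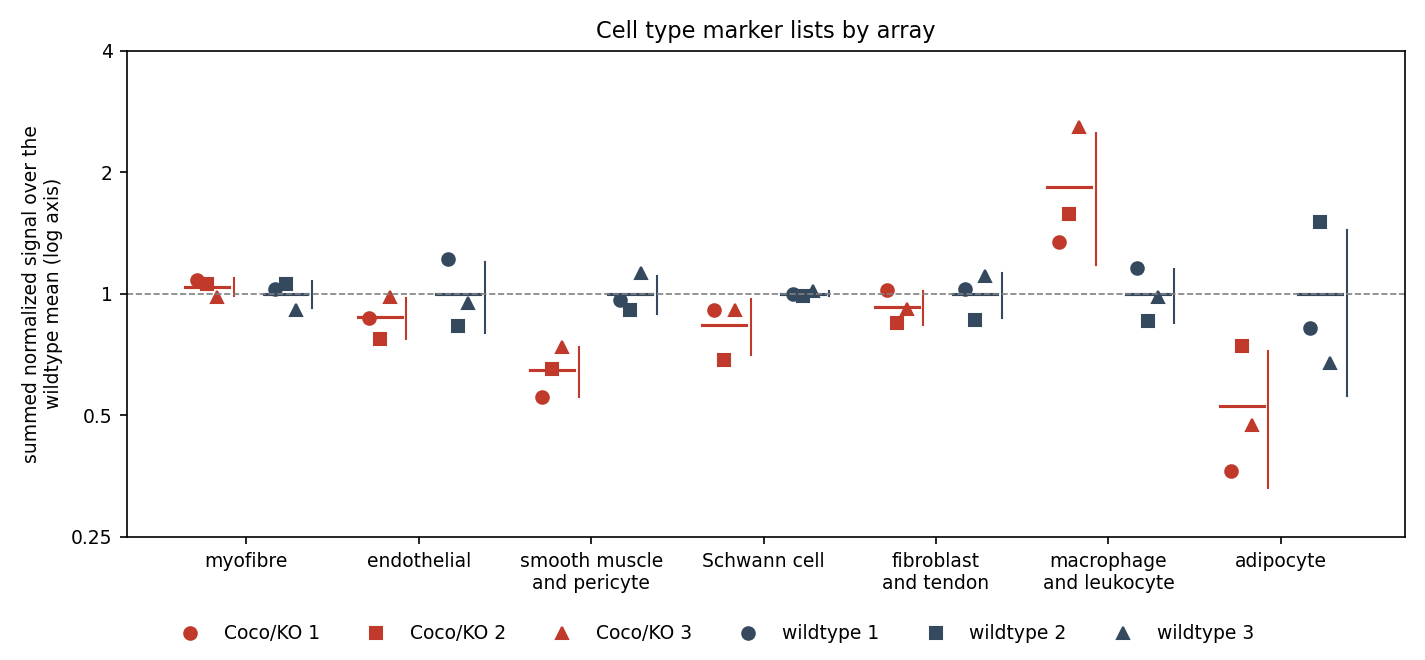
Summed normalized signal of each cell type marker list on each array, divided by the wildtype mean (log axis), Coco/KO left and wildtype right within each list. Horizontal lines are group means and vertical lines 1 SD either side. The macrophage and leukocyte sums are higher and the smooth muscle and pericyte and Schwann cell sums lower on all 3 Coco/KO arrays after normalization. A sum gives most weight to bright genes, such as Pmp22 for Schwann cells and Rgs5 for smooth muscle and pericytes. The other 4 lists overlap, and in deposited intensity the smooth muscle and pericyte and Schwann cell sums overlap too.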

How the data were processed

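Total soleus RNA was biotin-labelled during amplification and measured on a mouse Illumina beadchip, per the labels' protocols. The deposited table holds intensity values without normalization between arrays, exported by the authors with BeadStudio 3.2.6, per the file headers. It gives each value's bead number and bead SD and a detection score, a fraction equal to 1 minus the detection p-value, as deposited. Between 30.1% and 32.9% of intensities per array were at or below 0, so a background had been subtracted. The submitters' processing notes also name limma. A second deposited table of probes was not used here, since no table used here pairs its probes with genes.

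A constant of 42.7 and an offset of 16 were added before log2 and quantile normalization. These 58.7 units understate the changes of dim genes. Rows with detection p under 0.05 on at least 3 of 6 arrays were kept (12611 rows). The detection p did not follow intensity across rows, so a row that failed was not always dimmer than one that passed. Of 34492 rows, 22815 were matched to RefSeq names (GRCm38.p6, names only), and the brightest row stood for a gene (12135 genes). The genotype comparison used limma 3.58.1 (R 4.3.3) with Benjamini-Hochberg adjustment, threshold 0.05. Members and lists were chosen with earlier results of these data known. Named were all members, Acta1, Actc1, up to 3 genes of lowest p per related list and up to 2 per marker list. Alternatives covered normalization, offset, background, filter, variance model, array weights, replicate block, chip position, row choice, threshold and each array left out. All arrays sat on the same chip, Coco/KO at positions A, C and D and wildtype at B, E and F. Position was fitted as a linear term, which partly follows genotype, so a change under it is not an independent check. A few genes of these lists are not reported here.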

Additional observations from a re-analysis of the deposited data

How the results depend on the processing

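With 3 pools per genotype, small changes of the 8 members tested could not be measured. The SE of their log2 changes lay between 0.14 (Lama2) and 0.26 (Lamb1). On the rows that stood for them, bead errors were above 10% of the signal on every array for Itga7, Lama2 and Lamb1. Those of Hspg2 reached 11.07%. The number of members called was 0 and of related genes called 0 in the main processing and in each of the 18 alternatives. The count of all genes called was 18 in the main processing, 5 with a median shift in place of quantile normalization, 11 with an offset of 50, 2 with modelled background, 9 with rows detected on all 6 arrays, 11 with chip position in the model and between 5 and 29 with 1 array left out. The replicate number as a block gave 13 genes. Same-numbered arrays of the genotypes did not deviate together (correlations of -0.045, -0.29 and 0.091), so the numbers were not taken as pairs. Lama2, Itga7, Itgb1 and Hspg2 kept their direction in all their alternatives, with ranges from 0.042 to 0.31, -0.58 to -0.14, 0.078 to 0.49 and -0.21 to -0.048. For Lama2 and Itga7 the end nearest 0 came with modelled background, where their SEs shrank as well. The sign of Lamb2 turned to 0.0047 with a median shift, 0.00086 with an offset of 50, 0.023 with modelled background and 0.065 without normalization, and ranged from -0.25 to 0.13 with 1 array left out. Lamc1 was 0.037 without normalization and ranged from -0.11 to 0.088, Lamb1 from -0.33 to 0.10 and Nid1 from -0.036 to 0.42 with 1 array left out, and Nid1 was -0.037 with chip position. Among related genes, Lamb3 was -0.0011 with array weights, and with chip position Lamb3 was -0.061, Col15a1 -0.056 and Itgb7 -0.069. With 1 array left out Lamb3 ranged from -0.13 to 0.39, Lamc3 from -0.029 to 0.22 and Itgb7 from -0.023 to 0.24. The cause of these turns was not tested. The authors' value table could not be used as an alternative, since its probes are unnamed here. Fitting every row on its own was added after the data were seen and gave 18 calls.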
